A study of Mus musculus with 78 samples.

Results

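The genes described here are 40 genes of mitosis and chromosome segregation, taken by symbol from the 14695 genes of the count table, and all 40 passed the filter on low counts in every fit. They fall into 2 mitotic kinases, 4 subunits of the chromosomal passenger complex, 5 genes of the spindle assembly checkpoint, 3 genes of the anaphase trigger, 7 of the centromere and kinetochore, 7 kinesins, 4 of the spindle and cytokinesis, 5 condensin subunits and 3 chromatin and proliferation genes. They were read in primary CD8+ T cells of C57BL/6J mice, isolated from lymph node and spleen and used on day 3 after activation. In a nutrient experiment, RNA labelled as total RNA came from cells kept for 3 h in full medium, called Control, or in media that each lacked 1 nutrient: glucose, glutamine, methionine, arginine or the set of branched-chain amino acids (BCAA). In a drug experiment, RNA labelled as polyA RNA came from cells kept for 3 h with DMSO, the solvent, or with a drug. Halofuginone blocks the enzyme that charges proline onto its tRNA, Torin1 inhibits mTOR, and 4EGI-1 keeps the cap-binding factor eIF4E from its partner eIF4G. Doses are not stated in the labels. From each lysate one part gave total RNA and another was spun through a 15 to 45% sucrose gradient, of whose 15 fractions numbers 9 to 13 were pooled as polysome RNA, the mRNA that carries several ribosomes. Each of the 12 nutrient and 8 drug groups holds 3 libraries, 60 in all.

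Mitosis separates the copied chromosomes into daughter cells. Condensin and topoisomerase II compact and untangle them, kinesins build the spindle, and kinetochores tie each chromosome to spindle microtubules. The spindle assembly checkpoint holds back Cdc20, the activator of the anaphase-promoting complex, until every kinetochore is attached. The complex then destroys securin and cyclin B, separase cuts cohesin, and the chromosomes part. Activated CD8+ T cells divide rapidly. Transcripts of many of these genes rise in the late cell cycle, through promoters that often carry a cell cycle homology region (TTTGAA) and CCAAT boxes. In these bulk libraries, fewer cells in mitosis and less mRNA per mitotic cell cannot be told apart.

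Promoter sequence was available from RefSeq (build GRCm38.p6) for 33 of the 40 genes, as 36 windows from 250 bases before to 50 bases after a transcription start. TTTGAA, searched on both strands, was present in 29 of the 36 windows (80.6%), which belong to 26 genes. Of all 32851 windows in that collection 17.9% held it, and 12.3% of the 11890 windows of genes with counts here held it. CCAAT, also on both strands, was present in 72.2% of the members' windows, in 37.4% of all windows and in 37.8% of those of genes with counts. An E2F form, TTGGCGC, was present in 16.7% against 2.45% and 4.19%, and another, TTCCCGC, in 2.78% against 4.6% and 8.4%. In 111 windows of other mitosis genes TTTGAA was present in 36%, CCAAT in 57.7%, TTGGCGC in 9.01% and TTCCCGC in 18%. In 42 windows of DNA replication genes these shares were 11.9%, 57.1%, 23.8% and 35.7%. Of 37 TTTGAA matches, 28 began no further than 100 bases before the start. The windows of Ect2, Prc1 and Bub3 overlap, so some sites are counted more than once in these numbers. Positions were not counted in the windows of other genes. A pair with CCAAT in 1 window was found for 21 of the 33 genes, and the share of all windows with such a pair was not counted. The 4 stretches printed next belong to genes described below: Cdc20 and Prc1 are the lowest members in total RNA with 4EGI-1, and Kif11 and Top2a rose in polysome RNA in each deprivation. The pairs are not opposites, since Prc1 also rose in polysome RNA of deprived cells and Kif11 also fell in total RNA with 4EGI-1. Each is 100 bases written 5′ to 3′ on the strand of the gene, with TTTGAA and CCAAT or their reverse complements in capitals. The Cdc20 stretch is chr4:118437344-118437443 on the minus strand, and the Prc1 stretch is chr7:80294376-80294475 on the plus strand. The Kif11 stretch is chr19:37376282-37376381 on the plus strand, and the Top2a stretch is chr11:99024190-99024289 on the minus strand.
Cdc20: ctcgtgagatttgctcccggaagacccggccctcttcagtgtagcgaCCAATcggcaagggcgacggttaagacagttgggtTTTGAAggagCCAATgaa
Prc1: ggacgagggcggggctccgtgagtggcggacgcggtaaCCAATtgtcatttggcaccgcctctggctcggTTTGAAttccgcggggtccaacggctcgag
Kif11: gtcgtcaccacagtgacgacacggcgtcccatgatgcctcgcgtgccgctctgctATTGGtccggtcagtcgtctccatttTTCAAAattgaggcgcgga
Top2a: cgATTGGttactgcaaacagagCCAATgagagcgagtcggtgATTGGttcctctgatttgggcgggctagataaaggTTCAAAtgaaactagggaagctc
In each of the 4 stretches a TTTGAA element and at least 1 CCAAT box lie together. A match is a description of the letters, and binding of a factor was not measured.

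Total counts per library ran from 15144663 to 30637485 in total RNA and from 29917770 to 54272886 in polysome RNA of the nutrient experiment. They ran from 17506526 to 23099949 and from 17846266 to 24929556 in those of the drug experiment. All 5 CD8 T cell markers of the list were in the table, and their sum ran from 632 to 838 CPM (counts relative to the library total) in nutrient total RNA. Of 20 markers of B cells, macrophages and monocytes, dendritic cells, natural killer cells, erythroid cells, stroma and CD4 T cells, 4 were in the table. The B cell marker never passed 0.599 CPM, the 2 dendritic cell markers summed to 0.981 to 3.71 CPM, and the stroma marker ran from 6.77 to 22.0 CPM. One library stands apart: arginine-free replicate 2 of total RNA has the lowest depth and 4.98% mitochondrial ribosomal RNA. The labels do not say whether replicates were separate cultures or animals, so p-values measure the spread between these libraries, which may be technical. Levels are CPM on libraries scaled by TMM, changes are log2 fold changes with the standard error of the fit after ±, and a gene rose or fell where the adjusted p of edgeR's quasi-likelihood test was below 0.05 (Benjamini-Hochberg over all genes tested). The 5 deprivations share the Control libraries and the 3 drugs share the DMSO libraries, so their values are set side by side without a test of overlap.

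In total RNA, deprivation raised part of the set, led by the outer kinetochore gene Ndc80. Without arginine 2 members rose and 1 fell, where 5.10% and 4.14% of the 12642 genes tested rose and fell, so the members' share lay near the background. The 2 were Ndc80 (0.55 ± 0.09, adjusted p = 6.3e-04) and Cenpe (0.45 ± 0.11, adjusted p = 0.01), a kinetochore kinesin that moves chromosomes to the spindle equator. Aurkb, the kinase of the chromosomal passenger complex, fell (-0.32 ± 0.06, adjusted p = 0.0012). With DESeq2, and with the replicate block, 5 members were called. Mitochondrial ribosomal RNA took 1.56 to 4.98% of counts in the arginine-free libraries and 0.921 to 1.50% in Control. Leaving ribosomal RNA-like and mitochondrial entries out of the library scaling changed the count of called members by no more than 1.5 times. Any other part of it in these values was not tested. Without arginine-free replicate 2, which holds the highest share, 2 members rose and 1 fell. Cenpe (0.41) was not called without Control replicate 3.

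Without BCAA 15 members rose and 2 fell, with a median change of 0.17 over the 40, where 16.4% of all genes rose and 13.6% fell. Ndc80 rose by 1.19 ± 0.09 and Cenpe by 0.83 ± 0.11. Prc1, which bundles the microtubules of the central spindle, rose by 0.63 ± 0.09, and Bub1, a checkpoint kinase at the kinetochore, by 0.58 ± 0.09. Both mitotic kinases rose, Aurka, which works at spindle poles, by 0.50 ± 0.06 and Plk1 by 0.47 ± 0.08. Of the kinesins, 4 of 7 rose, with Kif4, a chromosome-bound kinesin, at 0.49 ± 0.15 and Kif20a, a kinesin of the central spindle, at 0.41 ± 0.07. Tpx2, the activator of Aurora A, stood at 0.61 ± 0.18 and Incenp, the scaffold of the passenger complex, at 0.52 ± 0.15. Aurkb (-0.26 ± 0.06) and Pttg1, securin (-0.24 ± 0.09), fell. No condensin gene and none of the 3 chromatin and proliferation genes passed the test. Kif11, the motor that pushes spindle poles apart (0.27 ± 0.09), and Kif15, another spindle kinesin (0.27 ± 0.06), were the other 2 kinesins that rose. The count of 17 was 11 without Control replicate 2 and 11 without BCAA-free replicate 1. Incenp (0.39 to 0.47) and Tpx2 (0.43 to 0.55) were not called without Control replicate 2 or 3, or without BCAA-free replicate 1. Kif11 (0.20 to 0.26) and Kif4 (0.39 to 0.46) were not called without Control replicate 2 or 3, or without BCAA-free replicate 1 or 3. Pttg1 (-0.27 to -0.20) was not called without Control replicate 1, 2 or 3, or without BCAA-free replicate 1, 2 or 3, or with no filter on low counts. Tpx2 stood at 0.97 without Control replicate 1, still called.

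After glucose removal 16 members rose and 5 fell (median 0.18), where 21.8% and 19.0% of all genes did. Ndc80 (1.09 ± 0.09) and Bub1 (0.85 ± 0.09) rose. Mki67, the proliferation marker Ki-67 that coats mitotic chromosomes, rose by 0.76 ± 0.17 and Top2a, the topoisomerase that untangles sister chromatids, by 0.46 ± 0.09. Of the condensin subunits 4 of 5 rose, from 0.20 (Ncapd2) to 0.59 (Smc4), and Smc2 stood at 0.22 ± 0.12. Tpx2 (0.80 ± 0.18), Incenp (0.67 ± 0.15) and Kif4 (0.63 ± 0.15) also rose. The 5 that fell were Aurka (-0.33 ± 0.06), Kif20b, a kinesin of cytokinesis (-0.33 ± 0.10), Mad2l1, the checkpoint protein that binds Cdc20 (-0.31 ± 0.07), Birc5, survivin of the passenger complex (-0.27 ± 0.07), and Cdc20 itself (-0.23 ± 0.06). Ncapd2 (0.15 to 0.18) was not called without Control replicate 3, or without glucose-free replicate 2.

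Glutamine removal raised 20 members and lowered 2 (median 0.29), where 20.4% of all genes rose and 18.6% fell. Ndc80 rose by 1.04 ± 0.09, Incenp by 0.72 ± 0.15, Aurka by 0.67 ± 0.06 and Cdca8, borealin of the passenger complex, by 0.60 ± 0.08. All 4 spindle and cytokinesis genes rose, among them Prc1 (0.44 ± 0.09) and Ect2, the activator of the small GTPase RhoA in cytokinesis (0.44 ± 0.08). Top2a rose by 0.38 ± 0.09, Smc4 by 0.44 ± 0.10, Bub1 by 0.56 ± 0.09 and Espl1, separase, by 0.34 ± 0.09. Nuf2, the direct partner of Ndc80 in the NDC80 complex, fell (-0.41 ± 0.08), as did Birc5 (-0.30 ± 0.07). Tpx2 stood at 0.47 ± 0.18 and Anln, anillin of the cleavage furrow, at 0.25 ± 0.09. Among kinesins Kif4 rose by 0.47 ± 0.15 and Kif11 by 0.31 ± 0.09. Anln (0.19 to 0.24) was not called without Control replicate 2 or 3, or without glutamine-free replicate 1 or 3. Kif11 (0.25) was not called without Control replicate 2. Kif4 (0.37 to 0.39) was not called without Control replicate 2 or 3, or without glutamine-free replicate 1. Tpx2 (0.29 to 0.52) was not called without Control replicate 2 or 3, or without glutamine-free replicate 1, 2 or 3, or with DESeq2. Tpx2 stood at 0.83 without Control replicate 1, still called.

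Methionine removal raised 12 members and lowered 3 (median 0.17), where 19.5% and 15.7% of all genes did. Ndc80 rose by 0.97 ± 0.09, Plk1 by 0.56 ± 0.08, Cenpe by 0.56 ± 0.11 and Bub1 by 0.53 ± 0.09. Tpx2 stood at 0.55 ± 0.18 and Cdca8 at 0.46 ± 0.08. The lowest member was Nuf2 (-0.82 ± 0.08, adjusted p = 1.4e-07), and Mad2l1 (-0.32 ± 0.07) and Birc5 (-0.18 ± 0.07) fell too. So within the NDC80 complex Ndc80 and Nuf2 moved apart. Of Spc24 and Spc25, the subunits at its inner end, Spc24 passed the test (0.26 ± 0.09) and Spc25 did not (0.23 ± 0.09). Incenp led the passenger complex (0.49 ± 0.15), Kif20a was the 1 kinesin that passed the test (0.20 ± 0.07), and Cdc20 rose by 0.22 ± 0.06. The count of 15 fell to 8 without Control replicate 2. Birc5 (-0.19 to -0.12) was not called without Control replicate 2 or 3, or without methionine-free replicate 1 or 3. Cdc20 (0.18) was not called without Control replicate 2. Incenp (0.35 to 0.39) was not called without Control replicate 2 or 3, or without methionine-free replicate 1. Kif20a (0.16 to 0.18) was not called without Control replicate 2, or without methionine-free replicate 1 or 3. Spc24 (0.15 to 0.27) was not called without Control replicate 1, 2 or 3, or without methionine-free replicate 2 or 3. Tpx2 (0.37 to 0.53) was not called without Control replicate 2 or 3, or without methionine-free replicate 1, or with DESeq2. Cenpe stood at 0.35 without methionine-free replicate 1, still called. Incenp stood at 0.74 and Tpx2 stood at 0.91 without Control replicate 1, still called.

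Per library, Ndc80 in total RNA stood at 34.9, 29.2 and 31.0 CPM in Control, 46.3, 39.2 and 53.1 without arginine and 74.8, 66.4 and 75.0 without BCAA. It stood at 70.0, 68.9 and 63.9 CPM without glucose, 66.7, 61.4 and 67.7 without glutamine and 62.3, 65.0 and 58.6 without methionine. Every deprived library lies above every Control library. Cenpe read 79.9, 72.5 and 70.2 CPM in Control, 95.2, 102 and 107 without arginine and 132, 117 and 146 without BCAA. Without glucose, glutamine and methionine its values were 102, 103 and 99.4, then 97.5, 99.2 and 103, then 137, 98.2 and 93.0 CPM. No deprived library overlaps Control, although methionine-free replicate 1 lies well above the other 2 of its group. Tpx2 read 93.6, 48.1 and 52.8 CPM in Control and 109, 83.7 and 90.6 without methionine, so 1 Control library lies well above the other 2 and reaches into the methionine-free group.

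**Figure D1:**
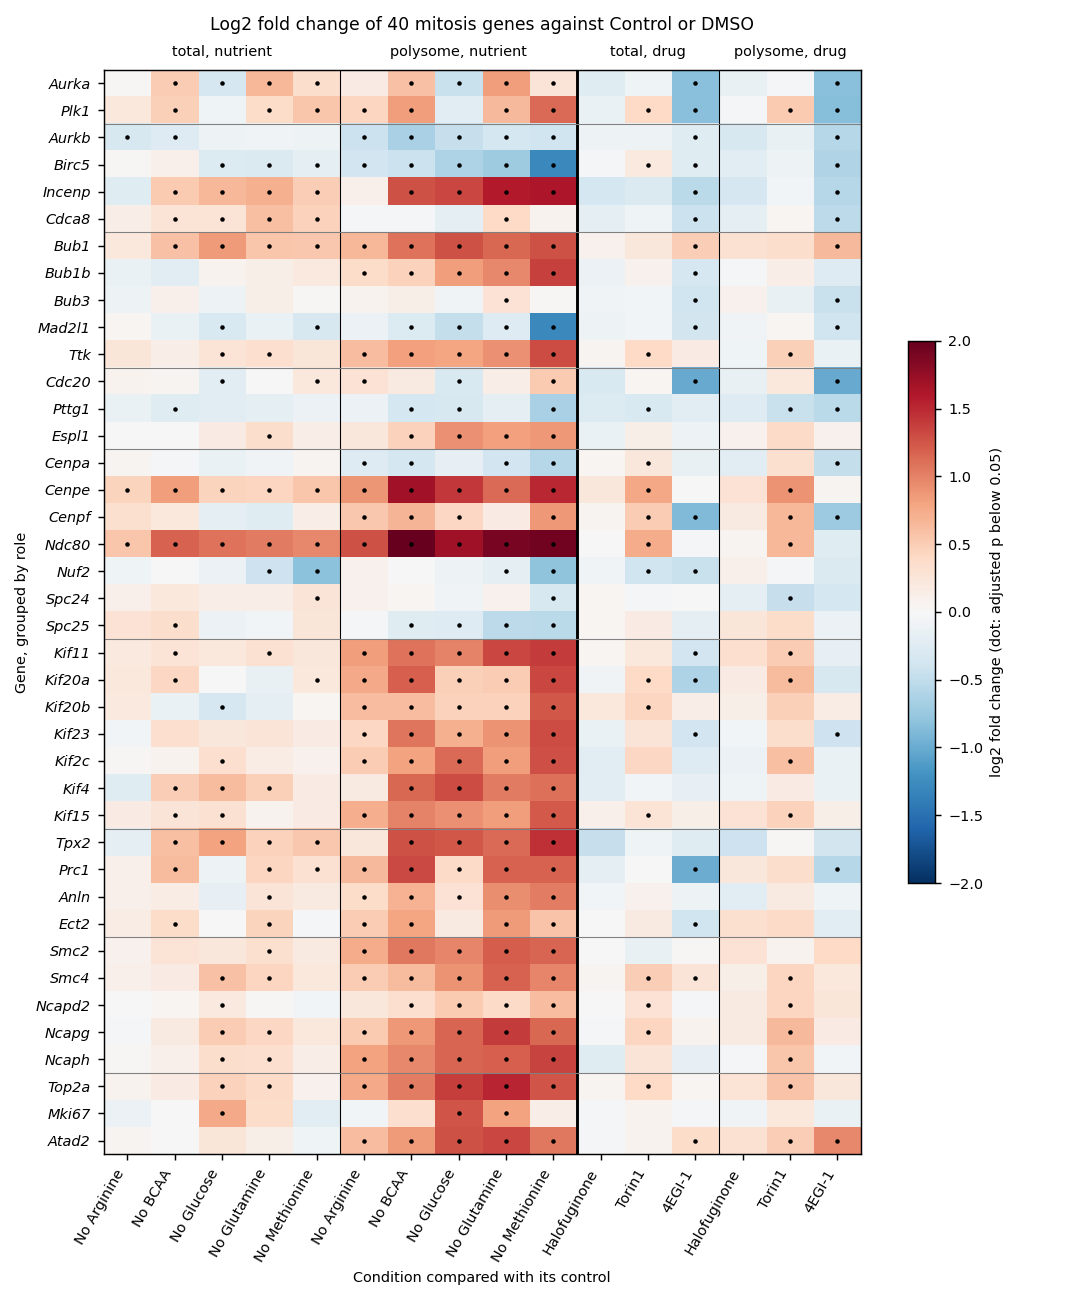
Log2 fold change of each of the 40 genes (rows, grouped by role) against Control or DMSO, in total and polysome RNA of each condition (columns), with a dot where the adjusted p is below 0.05. Red fills most kinesin, condensin and spindle rows of the polysome columns of deprived cells, up to 2.00 for Ndc80 without BCAA, while Aurkb, Birc5 and Mad2l1 are blue there, down to -1.29, and the 4EGI-1 columns are mostly blue, down to -1.01 for Cdc20 in polysome RNA.

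In polysome RNA more of the 40 genes passed the test. The summed level of the 40 genes was 2987 to 3506 CPM in the Control libraries, 3828 to 4368 without arginine, 4626 to 5274 without BCAA, 4435 to 5366 without glucose, 5144 to 5792 without glutamine and 5238 to 5331 without methionine. No deprived library overlaps Control in that sum. In total RNA the sum was 3173 to 3772 CPM in Control. There it overlapped Control without arginine (3334 to 3826), BCAA (3721 to 4060) and methionine (3606 to 3983). It did not without glucose (3927 to 4197) or glutamine (3942 to 4120). Abundant members such as Top2a weigh most in either sum. Without arginine 23 members rose and 3 fell in polysome RNA (median 0.39). Of the 12417 genes tested 19.0% rose and 21.6% fell, around a median of -0.02. Ndc80 rose by 1.27 ± 0.11 (adjusted p = 1.4e-07) and Cenpe by 0.88 ± 0.11. Of the kinesins 6 of 7 rose, led by Kif11, the motor that pushes spindle poles apart (0.83 ± 0.11), Kif20a (0.76 ± 0.09) and Kif15, a spindle kinesin (0.73 ± 0.10). Of condensin 4 of 5 rose, with the subunit Ncaph at 0.81 ± 0.12 and Smc2, one of its ATPase subunits, at 0.74 ± 0.12. Top2a rose by 0.76 ± 0.11 and Bub1 by 0.67 ± 0.07. The 3 that fell were Aurkb (-0.42 ± 0.05), Birc5 (-0.38 ± 0.08) and Cenpa, the centromeric form of histone H3 (-0.25 ± 0.09). Plk1 (0.43 ± 0.11), Cdc20 (0.28 ± 0.08) and Prc1 (0.64 ± 0.08) rose too. Cdc20 (0.24) was not called without arginine-free replicate 1. Cenpa (-0.25 to -0.16) was not called without Control replicate 2 or 3, or without arginine-free replicate 1.

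Without BCAA 28 members rose and 6 fell (median 0.74), where 28.7% of all genes rose and 27.4% fell. Ndc80 rose by 2.00 ± 0.11 (adjusted p = 3.2e-11) and Cenpe by 1.69 ± 0.11. All 7 kinesins rose, between 0.62 (Kif20b) and 1.19 (Kif20a), as did all 5 condensin subunits, between 0.34 (Ncapd2) and 1.06 (Smc2). All 4 spindle and cytokinesis genes rose, with Prc1 at 1.33 ± 0.08 and Tpx2 at 1.27 ± 0.20. Bub1 rose by 1.09 ± 0.07, Top2a by 1.03 ± 0.11 and Plk1 by 0.83 ± 0.11. The passenger complex split: Incenp rose by 1.27 ± 0.14, Aurkb fell (-0.65 ± 0.05) and so did Birc5 (-0.42 ± 0.08). Mad2l1 (-0.28 ± 0.06), Pttg1 (-0.35 ± 0.09), Cenpa (-0.35 ± 0.09) and Spc25 (-0.24 ± 0.10) also fell. Espl1 rose by 0.46 ± 0.12. Ncapd2 (0.24 to 0.25) was not called without Control replicate 2, or without BCAA-free replicate 1. Spc25 (-0.25 to -0.15) was not called without Control replicate 1 or 2, or without BCAA-free replicate 1, 2 or 3, or with no filter on low counts.

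Without glucose 26 members rose and 7 fell (median 0.61), where 29.6% and 29.4% of all genes did. Ndc80 rose by 1.70 ± 0.11 (adjusted p = 2.5e-10) and Cenpe by 1.41 ± 0.11. The 3 chromatin and proliferation genes all rose: Top2a by 1.38 ± 0.12, Atad2, a chromatin-bound ATPase with a bromodomain, by 1.28 ± 0.11, and Mki67 by 1.26 ± 0.18. All 5 condensin subunits rose, between 0.52 (Ncapd2) and 1.17 (Ncapg), and all 7 kinesins, between 0.46 (Kif20b) and 1.31 (Kif4). Incenp rose by 1.33 ± 0.14, Bub1 by 1.27 ± 0.07, Tpx2 by 1.25 ± 0.20 and Espl1 by 0.91 ± 0.12. Among the fallers were Aurka (-0.44 ± 0.08) and Cdc20 (-0.31 ± 0.08), beside Birc5 (-0.62 ± 0.08), Mad2l1 (-0.48 ± 0.06) and Aurkb (-0.46 ± 0.05). Plk1 stood at -0.21 ± 0.11 and missed the threshold.

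Without glutamine 30 members rose and 6 fell (median 0.84), where 32.2% and 32.4% of all genes did. The highest were Ndc80 (1.90 ± 0.11, adjusted p = 2.6e-11), Incenp (1.58 ± 0.14), Top2a (1.53 ± 0.12) and Ncapg, a condensin I subunit (1.39 ± 0.11). Kif11 led the 7 kinesins, all of which rose, at 1.34 ± 0.12. Prc1 led the 4 spindle and cytokinesis genes, all of which rose, at 1.18 ± 0.08. Aurka rose by 0.83 ± 0.08, Bub1 by 1.15 ± 0.07, Espl1 by 0.81 ± 0.12 and Mki67 by 0.80 ± 0.18. The 6 that fell were Birc5 (-0.72 ± 0.08), Spc25 (-0.53 ± 0.10), Cenpa (-0.38 ± 0.09), Aurkb (-0.35 ± 0.05), Mad2l1 (-0.26 ± 0.06) and Nuf2 (-0.17 ± 0.07). Nuf2 (-0.17 to -0.14) was not called without Control replicate 2, or without glutamine-free replicate 2 or 3, or with no filter on low counts. Mki67 stood at 0.50 without glutamine-free replicate 1, still called.

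Methionine removal left 29 members higher and 8 lower (median 1.08), where 34.3% and 34.7% of all genes rose and fell. Ndc80 rose by 1.93 ± 0.11 (adjusted p = 2.3e-11), Incenp by 1.62 ± 0.14, Cenpe by 1.50 ± 0.11 and Tpx2 by 1.46 ± 0.20. Of the checkpoint genes, the kinases Bub1 (1.27 ± 0.07) and Ttk (1.31 ± 0.11) and the Cdc20 inhibitor Bub1b (1.37 ± 0.13) rose, while Mad2l1 fell (-1.28 ± 0.06, adjusted p = 7.9e-12). The kinesins ran from 1.11 (Kif4) to 1.40 (Kif11), all 7 of them called, and the 5 condensin subunits from 0.62 (Ncapd2) to 1.35 (Ncaph), also all called. Plk1 rose by 1.13 ± 0.11 and Cdc20 by 0.53 ± 0.08. Birc5 was the lowest member (-1.29 ± 0.08, adjusted p = 9.5e-11). Nuf2 (-0.81 ± 0.07), Spc25 (-0.54 ± 0.10) and Spc24 (-0.31 ± 0.08) fell, so the NDC80 complex had 1 subunit up and 3 down. Pttg1 (-0.65 ± 0.09), Cenpa (-0.57 ± 0.09) and Aurkb (-0.39 ± 0.05) complete the 8. Top2a rose by 1.25 ± 0.11 and Espl1 by 0.87 ± 0.12.

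The polysome values were as follows, library by library. Ndc80 read 31.7, 25.1 and 24.9 CPM in Control, 68.8, 64.6 and 64.1 without arginine and 116, 102 and 109 without BCAA. It read 99.8, 91.7 and 74.7 CPM without glucose, 109, 105 and 91.7 without glutamine and 107, 104 and 101 without methionine. Every deprived library lies above every Control library. Cenpe stood at 54.6, 51.1 and 49.9 CPM in Control, 106, 98.1 and 82.8 without arginine and 192, 158 and 150.5 without BCAA. Its values were 156, 137 and 121 CPM without glucose, 125, 110.3 and 107 without glutamine and 147, 146 and 148 without methionine. These groups do not overlap with Control either. For Top2a the Control libraries held 318, 241 and 259 CPM, the arginine-free 524, 471 and 394 and the BCAA-free 641, 513 and 513. The glucose-free held 767, 711 and 645 CPM, the glutamine-free 823, 818 and 720.1 and the methionine-free 632, 648 and 671. Control is again the lowest group, with no overlap. Kif11 ran at 129, 98.7 and 103 CPM in Control, 227, 191 and 171 without arginine and 261, 215 and 223 without BCAA. It ran at 246, 224 and 190.4 CPM without glucose, 288, 288 and 262 without glutamine and 291, 292 and 289 without methionine. All deprived libraries exceed all Control libraries. Bub1 had 46.7, 44.9 and 41.8 CPM in Control, 73.6, 71.3 and 67.0 without arginine and 100.2, 91.9 and 92.4 without BCAA. Without glucose it had 108, 114 and 100.0 CPM, without glutamine 97.0, 99.7 and 98.9 and without methionine 108, 114 and 99.7. The Control group is the lowest, with no overlap.

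The condensin subunit Ncaph had 46.6, 35.6 and 37.6 CPM in Control polysomes, 79.2, 70.3 and 60.5 without arginine and 86.0, 73.6 and 74.0 without BCAA. It had 103, 87.4 and 77.7 CPM without glucose, 93.5, 97.4 and 84.0 without glutamine and 98.3, 103 and 104 without methionine. The deprived groups lie above Control throughout. Smc2 was at 165, 124 and 125 CPM in Control, 254, 223 and 215 without arginine and 322, 264 and 276 without BCAA. It was at 303, 280.3 and 229.5 CPM without glucose, 348, 310.4 and 306 without glutamine and 328, 308 and 293 without methionine. Here too no deprived library overlaps Control. Atad2 measured 44.9, 34.4 and 37.4 CPM in Control, 63.5, 57.2 and 57.6 without arginine and 81.1, 61.6 and 67.8 without BCAA. It measured 103, 94.2 and 85.1 CPM without glucose, 105, 94.3 and 96.7 without glutamine and 85.2, 76.0 and 81.1 without methionine. Glutamine-free and glucose-free groups have the highest values, although glucose-free replicate 3 lies just below methionine-free replicate 1, and Control lies below all. The genes shown so far were named for large changes or as the largest of their role. The next 3 genes were picked because they went down. Both choices were made after the values were seen, so gaps between groups follow in part from the choice. Birc5 measured 75.1, 85.7 and 74.8 CPM in Control, 54.1, 61.2 and 66.0 without arginine and 61.0, 58.2 and 56.5 without BCAA. The glucose-free libraries had 47.4, 52.4 and 53.7 CPM of it, the glutamine-free 50.0, 45.4 and 47.9 and the methionine-free 31.8, 33.1 and 31.1. Here Control is the highest group and the methionine-free libraries are the lowest, with no overlap of either with any other group. Mad2l1 was at 146, 157 and 136 CPM in Control, 132, 139 and 133 without arginine and 128, 115 and 118 without BCAA. It was at 102, 107 and 105 CPM without glucose, 123, 124 and 120.3 without glutamine and 59.2, 62.4 and 58.7 without methionine. The methionine-free libraries fall far below the rest. Nuf2 stood at 43.3, 46.9 and 42.4 CPM in Control, 45.6, 47.8 and 47.8 without arginine and 47.0, 44.0 and 42.7 without BCAA. It stood at 43.2, 43.2 and 37.7 CPM without glucose, 40.0, 39.0 and 38.5 without glutamine and 26.1, 25.4 and 23.9 without methionine. The methionine-free libraries are lowest, the glutamine-free lie just under Control, and the other 3 deprived groups overlap Control.

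**Figure D2:**
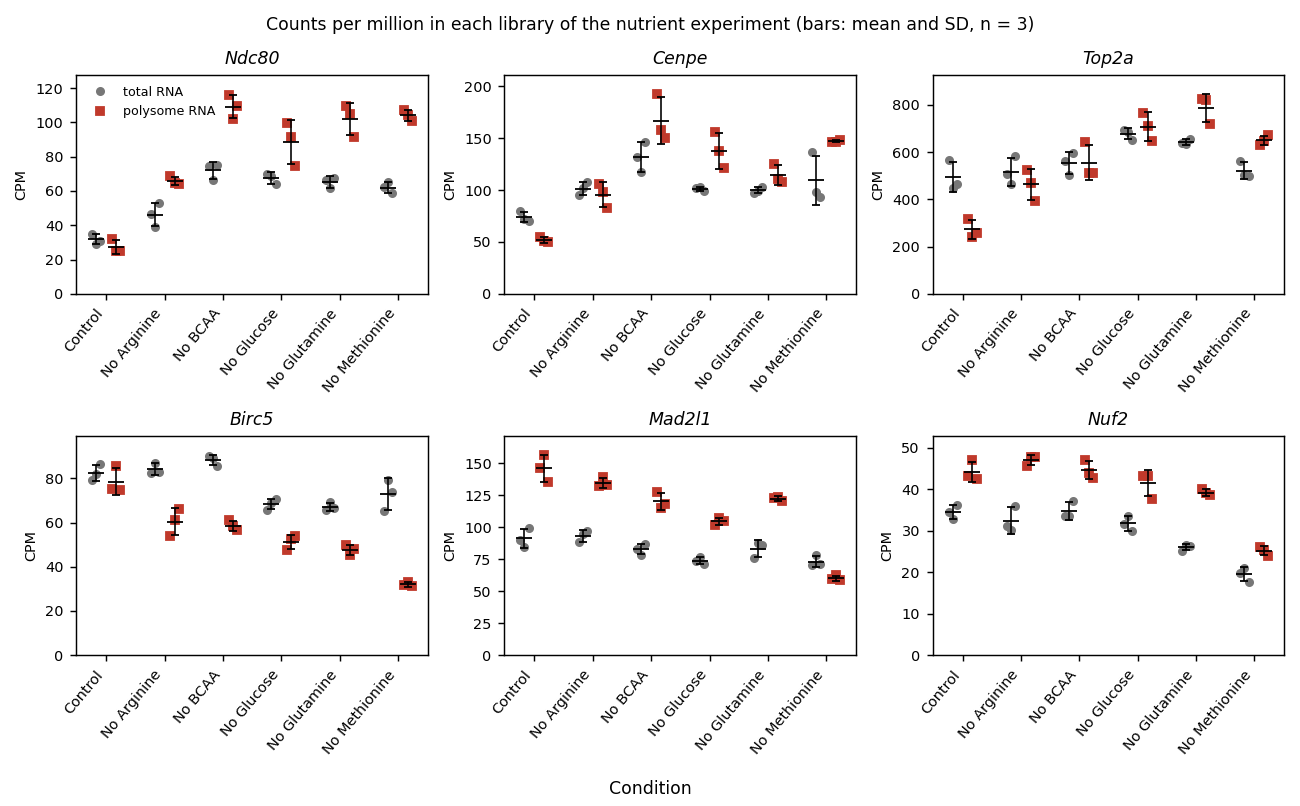
CPM of 6 genes in each library of the nutrient experiment, total RNA as grey circles and polysome RNA as red squares, with the mean and SD of 3 libraries per group. Ndc80, Cenpe and Top2a lie lowest in Control polysomes, Birc5 falls from 75 to 86 CPM in Control to 31 to 33 CPM without methionine, and Mad2l1 and Nuf2 are lowest without methionine.

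Translational efficiency is here how far the ratio of polysome to total RNA moved from its value in Control, tested as an interaction over both kinds of library. An alternative, the rRNA-free scaling, leaves ribosomal RNA-like and mitochondrial entries out of the library scaling and moves the median ratio of all genes up, by at most 0.16 in any deprivation. The ratio rose for many motor, condensin and chromatin genes of the set, but not for all of them in each deprivation. It fell for a smaller group. Without arginine 14 members rose and 1 fell (median 0.36), where 6.72% of the 13072 genes tested rose and 9.81% fell around a median of -0.04. Ncaph (0.77 ± 0.13, adjusted p = 3.6e-04), Ndc80 (0.71 ± 0.14), Top2a (0.68 ± 0.14) and Smc2 (0.64 ± 0.17) were the highest, and Birc5 fell (-0.42 ± 0.11). Kif11 (0.63 ± 0.14), Kif20b (0.40 ± 0.14), Prc1 (0.53 ± 0.12), Ect2 (0.36 ± 0.12) and the checkpoint genes Bub1 (0.44 ± 0.11) and Bub1b (0.49 ± 0.17) rose as well. This count moves with the fit. With the lysate as a block it was 23, without the lysate of arginine-free replicate 1 it was 5, and without that of replicate 2 it was 9. Birc5 (-0.36 to -0.33) was not called without Control replicate 2, or without arginine-free replicate 1. Bub1 (0.35 to 0.40) was not called without Control replicate 3, or without arginine-free replicate 1 or 2. Bub1b (0.38 to 0.49) was not called without Control replicate 2 or 3, or without arginine-free replicate 1 or 2, or with no filter on low counts. Ect2 (0.28 to 0.40) was not called without Control replicate 1, 2 or 3, or without arginine-free replicate 1 or 2. Kif11 (0.52) and Prc1 (0.46) were not called without arginine-free replicate 1. Kif20b (0.28 to 0.44) was not called without Control replicate 1, 2 or 3, or without arginine-free replicate 1 or 2, or with no filter on low counts or with the replicate block. Smc2 (0.56 to 0.57) was not called without arginine-free replicate 1 or 2.

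Without BCAA the ratio of 20 members rose and that of 5 fell (median 0.43), where 8.03% and 18.9% of all genes did around a median of -0.12. The highest were Cenpe (0.75 ± 0.15), Top2a (0.75 ± 0.14), Ncaph (0.75 ± 0.13) and Atad2 (0.75 ± 0.14). Kif11 led the 6 kinesins that rose (0.70 ± 0.14), and Ttk (0.57 ± 0.14) and Prc1 (0.59 ± 0.12) led their groups. The 5 fallers were Spc25 (-0.70 ± 0.14), Birc5 (-0.63 ± 0.11), Aurkb (-0.49 ± 0.07), Cenpa (-0.44 ± 0.12) and Cdca8 (-0.40 ± 0.11), none of them a kinesin or a condensin subunit. Incenp rose by 0.65 ± 0.21. Cdca8 (-0.34 to -0.27) was not called without BCAA-free replicate 1, or with the rRNA-free scaling. Cenpa (-0.31) was not called with the rRNA-free scaling. Incenp (0.63 to 0.65) was not called without BCAA-free replicate 1 or 3.

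Without glucose the ratio of 21 members rose and that of 4 fell (median 0.39), where 8.84% and 16.9% of all genes did around -0.08. Atad2 (0.96 ± 0.14), Cenpe (0.87 ± 0.15), Top2a (0.83 ± 0.14) and Ncaph (0.73 ± 0.13) were the highest. Kif2c, a kinesin that depolymerises microtubules, rose by 0.72 ± 0.19, Bub1b by 0.69 ± 0.17 and Espl1 by 0.67 ± 0.14. Cdca8 (-0.53 ± 0.11), Aurkb (-0.45 ± 0.07), Birc5 (-0.44 ± 0.11) and Mad2l1 (-0.26 ± 0.10) fell, the first 3 of them subunits of the passenger complex. Incenp rose by 0.58 ± 0.21 and Prc1 by 0.39 ± 0.12. Incenp (0.50 to 0.64) was not called without Control replicate 1, 2 or 3, or without glucose-free replicate 1 or 2. Mad2l1 (-0.27 to -0.14) was not called without Control replicate 1 or 2, or without glucose-free replicate 1 or 2, or with DESeq2, with RLE size factors or with the rRNA-free scaling. Prc1 (0.37 to 0.38) was not called without Control replicate 3, or without glucose-free replicate 2.

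Without glutamine the ratio of 20 members rose and that of 6 fell (median 0.45), where 9.98% and 25.2% of all genes did around -0.15. With the rRNA-free scaling the split was 24 and 3, and the median of all genes lay at 0.01 in place of -0.15. Atad2 (1.08 ± 0.14), Top2a (1.01 ± 0.14), Kif11 (0.89 ± 0.14) and Ncapg (0.85 ± 0.14) were the highest. Incenp rose by 0.73 ± 0.21, Ndc80 by 0.72 ± 0.14 and Bub1b by 0.70 ± 0.17. Spc25 (-0.62 ± 0.14) and Birc5 (-0.56 ± 0.11) were the lowest, followed by Cenpa (-0.44 ± 0.12), Aurkb (-0.42 ± 0.07), Cdca8 (-0.34 ± 0.11) and Mad2l1 (-0.26 ± 0.10). Prc1 rose by 0.61 ± 0.12. Cdca8 (-0.30 to -0.18) was not called without Control replicate 2, or without glutamine-free replicate 3, or with DESeq2, with RLE size factors or with the rRNA-free scaling. Cenpa (-0.28) was not called with the rRNA-free scaling. Mad2l1 (-0.27 to -0.10) was not called without Control replicate 1 or 2, or without glutamine-free replicate 2 or 3, or with DESeq2, with RLE size factors or with the rRNA-free scaling. Aurkb stood at -0.26 with the rRNA-free scaling, still called.

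Without methionine the ratio of 27 members rose and that of 8 fell (median 0.72), where 19.2% and 29.9% of all genes did around -0.14, so 35 of 40 were called. Ncaph (1.13 ± 0.13), Kif2c (1.12 ± 0.19), Kif20b (1.11 ± 0.14) and Bub1b (1.09 ± 0.17) were the highest. All 7 kinesins, all 5 condensin subunits and all 4 spindle and cytokinesis genes rose, the last led by Tpx2 (0.83 ± 0.28). Incenp rose by 1.05 ± 0.21, Ndc80 by 0.88 ± 0.14, Top2a by 1.09 ± 0.14 and Espl1 by 0.65 ± 0.14. The fallers were Birc5 (-1.20 ± 0.11, adjusted p = 3.0e-10), Mad2l1 (-1.05 ± 0.10), Spc25 (-0.87 ± 0.14), Cenpa (-0.72 ± 0.12), Spc24 (-0.67 ± 0.13), Pttg1 (-0.62 ± 0.13), Cdca8 (-0.47 ± 0.11) and Aurkb (-0.38 ± 0.07). The kinase Plk1 rose by 0.49 ± 0.13.

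**Figure D3:**
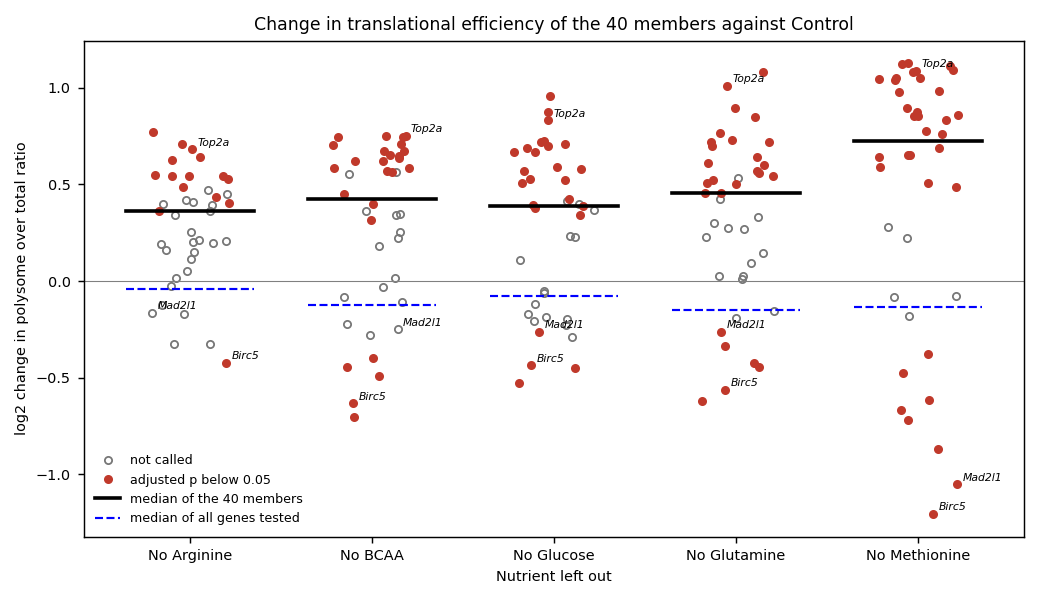
Change of the polysome to total ratio of each of the 40 genes against Control (log2, vertical) by the nutrient left out (horizontal), filled where the adjusted p is below 0.05, with the median of the 40 as a solid line and that of all genes tested as a dashed line. The medians of the 40 run from 0.36 without arginine to 0.72 without methionine, where a lower cloud of 8 genes reaches down to Birc5 at -1.20.

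The ratio within each lysate shows these shifts without a model, as log2 of polysome CPM over total CPM. For Top2a it was -0.84, -0.84 and -0.82 in the Control lysates, 0.05, 0.03 and -0.55 without arginine and 0.07, -0.03 and -0.29 without BCAA. It was 0.05, -0.01 and -0.05 without glucose, 0.24, 0.25 and 0.04 without glutamine and 0.10, 0.32 and 0.36 without methionine. The Control lysates are the lowest, with no overlap. Ncaph stood at -0.09, -0.24 and -0.10 in Control, 0.77, 0.68 and 0.42 without arginine and 0.64, 0.69 and 0.51 without BCAA. It stood at 0.67, 0.53 and 0.54 without glucose, 0.57, 0.72 and 0.45 without glutamine and 0.91, 1.03 and 1.02 without methionine. Again no deprived lysate overlaps Control. Birc5 started from -0.08, 0.12 and -0.18 in Control and had -0.61, -0.49 and -0.31 without arginine and -0.67, -0.68 and -0.68 without BCAA. Its values were -0.56, -0.45 and -0.43 without glucose, -0.52, -0.72 and -0.58 without glutamine and -1.10, -1.32 and -1.31 without methionine. Every deprived lysate lies below Control, and the methionine-free ones lie lowest. Mad2l1 had 0.69, 0.94 and 0.48 in Control, 0.58, 0.57 and 0.47 without arginine and 0.51, 0.49 and 0.37 without BCAA. It had 0.38, 0.43 and 0.51 without glucose, 0.57, 0.38 and 0.38 without glutamine and -0.31, -0.38 and -0.34 without methionine. The methionine-free lysates stand below all others, and each of the other 4 deprived groups overlaps Control.

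**Figure D4:**
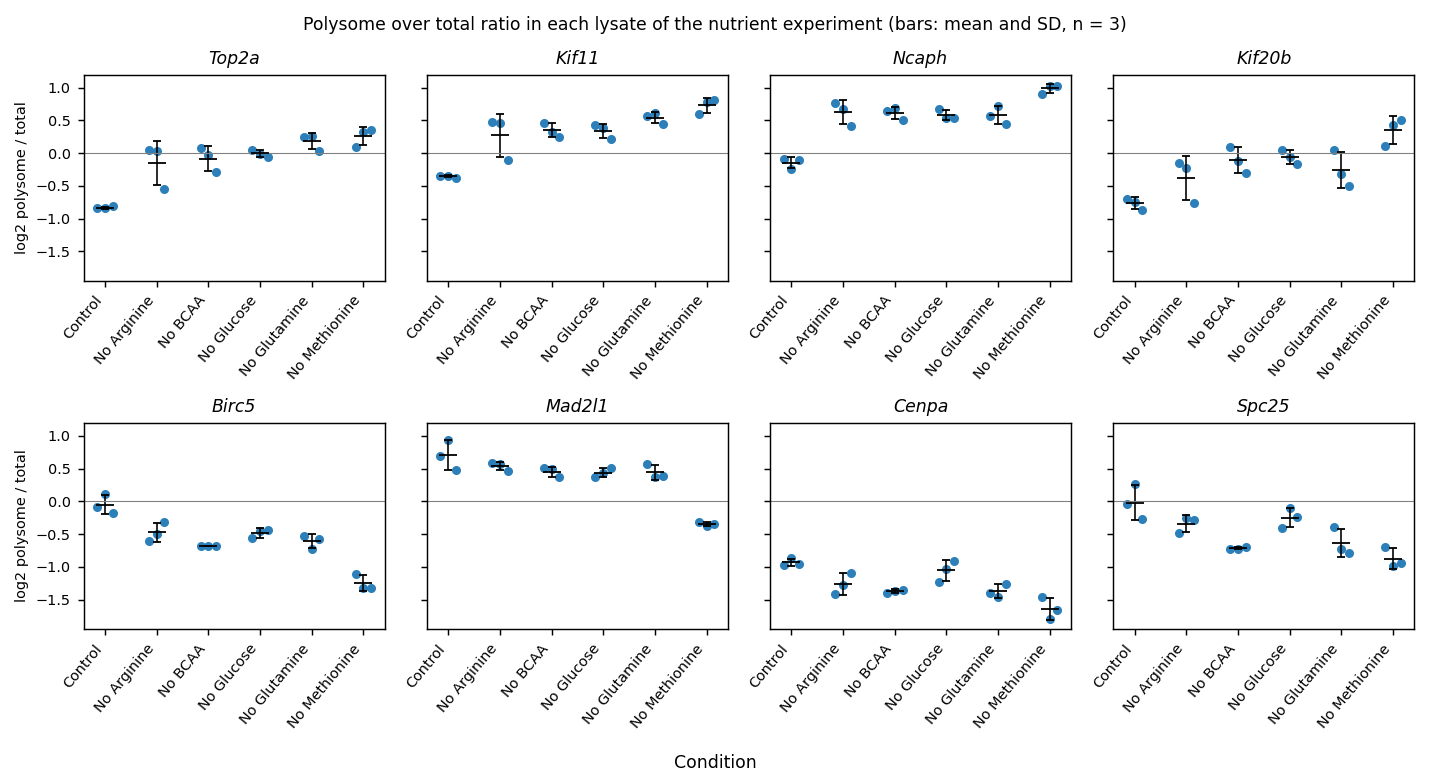
Log2 of polysome over total CPM in each lysate of the nutrient experiment for 8 genes, with the mean and SD of 3 lysates per group. Top2a, Kif11, Ncaph and Kif20b lie lowest in Control, while Birc5, Mad2l1, Cenpa and Spc25 reach their lowest values without methionine.

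The members did not start from one ratio. In Control, 11 of the 40 were higher in polysome than in total RNA and 16 lower, where 37.6% and 28.0% of all genes were. With the rRNA-free scaling these were 9 and 22. The higher ones included Cdca8 (0.81 ± 0.08), Mad2l1 (0.70 ± 0.07), Aurkb (0.69 ± 0.05), Aurka (0.64 ± 0.07), Pttg1 (0.63 ± 0.09), Bub3, a checkpoint protein (0.55 ± 0.06), and Cdc20 (0.55 ± 0.07). The lower ones included Cenpa (-0.93 ± 0.09), Top2a (-0.83 ± 0.10), Espl1 (-0.83 ± 0.10), Atad2 (-0.82 ± 0.10), Kif20b (-0.77 ± 0.10) and Cenpe (-0.49 ± 0.11). Ndc80 (-0.19 ± 0.10) and Birc5 (-0.04 ± 0.07) were not called. So Mad2l1, Aurkb, Cdca8 and Pttg1 began high and fell without methionine, Top2a, Atad2, Espl1 and Kif20b began low and rose, and Cenpa began low and fell. Others began above 0 and stood higher still without methionine. By the mean of the lysate ratios, Plk1 went from 0.33 to 0.83, Ect2 from 0.23 to 0.74 and Cdc20 from 0.55 to 0.77. The ratio in Control enters both quantities, so no relation between them was tested.

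The deprivations differed from one another. The test of any difference among the 5 deprived groups was passed by 31 of the 40 members in total RNA, where 60.0% of all genes passed, and by 40 of 40 in polysome RNA, where 80.7% passed. It was passed by 20 in translational efficiency, where 32.6% passed. The last count was 34 with the lysate as a block and 13 without the lysate of methionine-free replicate 3. Aurka differed most clearly in total RNA (adjusted p = 4.9e-10), and in polysome RNA (adjusted p = 2.0e-09) its changes were 0.16 without arginine, 0.58 without BCAA, -0.44 without glucose, 0.83 without glutamine and 0.25 without methionine. Mad2l1 differed in polysome RNA (adjusted p = 5.3e-10), where it changed by -0.12 without arginine, -0.28 without BCAA, -0.48 without glucose, -0.26 without glutamine and -1.28 without methionine. Its ratio differed too (adjusted p = 1.2e-07). Nuf2 differed in total RNA (adjusted p = 4.8e-07), at -0.09 without arginine, 0.01 without BCAA, -0.12 without glucose, -0.41 without glutamine and -0.82 without methionine. Cdc20 in polysome RNA (adjusted p = 1.5e-06) stood at 0.28 without arginine, 0.18 without BCAA, -0.31 without glucose, 0.13 without glutamine and 0.53 without methionine, and Plk1 (adjusted p = 1.0e-07) at 0.43 without arginine, 0.83 without BCAA, -0.21 without glucose, 0.65 without glutamine and 1.13 without methionine. Mki67 in polysome RNA (adjusted p = 1.0e-05) stood at -0.06 without arginine, 0.34 without BCAA, 1.26 without glucose, 0.80 without glutamine and 0.14 without methionine. In polysome RNA Aurka, Cdc20 and Plk1 were thus lowest without glucose. Other genes of mitotic progression rose there, such as Espl1 (mean 44.7 CPM against 23.8 in Control) and Bub1 (107 against 44.4). The ratio of Birc5 (adjusted p = 5.2e-06) was lowest without methionine. For Ndc80 the ratio gave an adjusted p of 0.27, so a difference among deprivations was not detected in it.

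Aurka in total RNA read 65.4, 58.2 and 61.1 CPM in Control, 62.5, 60.9 and 64.6 without arginine and 87.9, 88.1 and 85.5 without BCAA. Without glucose it read 48.1, 49.8 and 48.5 CPM, without glutamine 98.3, 91.9 and 103 and without methionine 77.2, 75.4 and 82.0. The glucose-free libraries lie below Control, those without BCAA, glutamine or methionine lie above it, and the arginine-free ones overlap it.

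Other genes of mitosis, 114 in all (other kinetochore, cohesin, anaphase-promoting complex, spindle and mitotic entry genes), moved in both directions. In total and polysome RNA the share of them that fell lay near or below that of all genes in each deprivation. In total RNA 10 rose and 4 fell without arginine, 30 and 13 without BCAA, 31 and 20 without glucose, 31 and 16 without glutamine and 31 and 15 without methionine, where the shares of all genes that rose and fell were 5.10% and 4.14% without arginine, 16.4% and 13.6% without BCAA, 21.8% and 19.0% without glucose, 20.4% and 18.6% without glutamine and 19.5% and 15.7% without methionine. In polysome RNA 49 rose and 13 fell without arginine, 64 and 23 without BCAA, 58 and 27 without glucose, 60 and 22 without glutamine and 58 and 39 without methionine, with medians from 0.17 to 0.26 against 0.39 to 1.08 for the 40 genes. Of all genes 19.0% and 21.6% without arginine, 28.7% and 27.4% without BCAA, 29.6% and 29.4% without glucose, 32.2% and 32.4% without glutamine and 34.3% and 34.7% without methionine rose and fell in that fraction. By the polysome to total ratio 27 rose and 10 fell without arginine, 27 and 26 without BCAA, 19 and 15 without glucose, 30 and 28 without glutamine and 43 and 41 without methionine, against 6.72% and 9.81% without arginine, 8.03% and 18.9% without BCAA, 8.84% and 16.9% without glucose, 9.98% and 25.2% without glutamine and 19.2% and 29.9% without methionine of all genes. Kif18b, a kinesin of the spindle, rose by 1.75 ± 0.12 in polysome RNA without methionine. Cks2, a small partner of the cyclin-dependent kinase Cdk1, fell (-1.17 ± 0.11). In total RNA Ckap2l, a spindle protein, rose without BCAA (0.91 ± 0.08), and Pbk, a mitotic kinase, fell without glucose (-0.97 ± 0.11). A list of 44 DNA replication genes, which act earlier in the cycle, was set beside them, to be read against the same shares of all genes. In total RNA 0 rose and 3 fell without arginine, 2 and 17 without BCAA, 8 and 11 without glucose, 8 and 6 without glutamine and 2 and 19 without methionine. Without arginine, glucose or glutamine the replication genes thus lay near the background. In polysome RNA 16 rose and 9 fell without arginine, 14 and 15 without BCAA, 18 and 14 without glucose, 22 and 11 without glutamine and 18 and 17 without methionine. By the ratio 10 rose and 5 fell without arginine, 9 and 9 without BCAA, 12 and 9 without glucose, 12 and 11 without glutamine and 20 and 17 without methionine. Ung, a glycosylase that removes uracil from DNA, fell in total RNA without BCAA (-1.48 ± 0.10) and in polysome RNA without methionine (-2.24 ± 0.11). The lists' medians in total RNA without methionine were 0.17 for the 40, 0.08 for the other mitosis genes and -0.19 for the replication genes.

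In the drug experiment Halofuginone moved no member past the threshold of edgeR's quasi-likelihood test, in total or in polysome RNA. In total RNA 6 of 40 had an unadjusted p below 0.05 and DESeq2 called 0, where 0.279% of the 12535 genes tested were called. In polysome RNA 4 had an unadjusted p below 0.05 and DESeq2 called 0, where 0.0491% of 12223 genes were called. Cdc20 stood at -0.31 ± 0.12 and Cenpe at 0.23 ± 0.09 in total RNA.

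Torin1 raised 14 members in total RNA and lowered 2 (median 0.17), where 13.3% of all genes rose and 13.3% fell. Kinetochore genes led: Cenpe (0.78 ± 0.09, adjusted p = 5.3e-06), Ndc80 (0.75 ± 0.14) and Cenpf, a large kinetochore protein of late G2 and mitosis (0.51 ± 0.08). Of condensin 3 of 5 rose, with Smc4 at 0.49 ± 0.09 and Ncapg at 0.43 ± 0.10. Kif20b rose by 0.42 ± 0.11, Plk1 by 0.40 ± 0.11, Ttk by 0.40 ± 0.11 and Top2a by 0.40 ± 0.10. Nuf2 (-0.40 ± 0.07) and Pttg1 (-0.30 ± 0.09) fell. Cenpa rose by 0.23 ± 0.07 and Birc5 by 0.20 ± 0.07. Birc5 (0.13 to 0.22) was not called without DMSO replicate 1, 3 or 4, or without Torin1 replicate 1 or 3, or with no filter on low counts. Cenpa (0.16 to 0.22) was not called without DMSO replicate 1, or without Torin1 replicate 1 or 3. Plk1 (0.32 to 0.37) was not called without DMSO replicate 4, or without Torin1 replicate 4. Top2a (0.26) was not called without Torin1 replicate 4. Ttk (0.31 to 0.34) was not called without DMSO replicate 4, or without Torin1 replicate 3. Ncapg stood at 0.28 without Torin1 replicate 4, still called.

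In polysome RNA Torin1 raised 15 members and lowered 2 (median 0.35), where 8.48% and 8.30% of all genes rose and fell. Cenpe (0.91 ± 0.18, adjusted p = 0.0027), Ndc80 (0.66 ± 0.14), Cenpf (0.66 ± 0.15) and Ncapg (0.64 ± 0.13) were the highest. Kif20a rose by 0.63 ± 0.16, Top2a by 0.57 ± 0.13, Plk1 by 0.53 ± 0.14 and Ttk by 0.47 ± 0.14. Spc24 (-0.46 ± 0.14) and Pttg1 (-0.45 ± 0.13) fell. The condensin subunits Ncapd2 (0.44 ± 0.13) and Smc4 (0.43 ± 0.13) rose. The count of 17 was 7 without DMSO replicate 1, 7 without Torin1 replicate 3 and 10 without Torin1 replicate 4. The label of the replicate 3 polysome library carries an R of unstated meaning. Kif20a (0.48 to 0.56) was not called without DMSO replicate 1, or without Torin1 replicate 3. Ncapd2 (0.36 to 0.43) and Ttk (0.37 to 0.51) were not called without DMSO replicate 1 or 4, or without Torin1 replicate 3 or 4. Plk1 (0.43 to 0.49) was not called without DMSO replicate 1 or 4, or without Torin1 replicate 3. Pttg1 (-0.47 to -0.35) and Spc24 (-0.48 to -0.30) were not called without DMSO replicate 1 or 3, or without Torin1 replicate 1, 3 or 4. Smc4 (0.38 to 0.44) was not called without DMSO replicate 1 or 3, or without Torin1 replicate 1 or 4.

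4EGI-1 lowered much of the set. In total RNA 17 members fell and 3 rose (median -0.21), where 12.3% of all genes fell and 14.1% rose. Cdc20 (-1.002 ± 0.12, adjusted p = 1.9e-05) and Prc1 (-0.996 ± 0.09, adjusted p = 6.5e-07) fell furthest, followed by Cenpf (-0.88 ± 0.08). Both mitotic kinases fell, Aurka (-0.84 ± 0.11) and Plk1 (-0.83 ± 0.11). All 4 passenger complex genes fell, from -0.23 (Aurkb) and -0.24 (Birc5) to -0.43 (Cdca8) and -0.54 (Incenp). Kif20a led the 3 kinesins that fell (-0.62 ± 0.08), and Bub3 (-0.40 ± 0.08), Ect2 (-0.40 ± 0.08) and Nuf2 (-0.45 ± 0.07) fell as well. Bub1 (0.49 ± 0.09), Atad2 (0.37 ± 0.09) and Smc4 (0.26 ± 0.09) rose. Mitochondrial ribosomal RNA took 0.614 to 0.968% of counts in the 4EGI-1 libraries and 0.142 to 0.207% in DMSO. The rRNA-free scaling changed the count of called members by no more than 1.5 times. Any other part of it in these values was not tested. Aurkb (-0.23 to -0.18) was not called without 4EGI-1 replicate 2 or 3, or without DMSO replicate 1 or 4, or with the replicate block. Incenp (-0.54 to -0.38) was not called without 4EGI-1 replicate 2 or 3, or without DMSO replicate 1 or 4. Smc4 (0.15 to 0.28) was not called without 4EGI-1 replicate 2 or 3, or without DMSO replicate 3 or 4.

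In polysome RNA 14 members fell with 4EGI-1 and 2 rose (median -0.24), where 14.5% and 14.1% of all genes did. Cdc20 (-1.01 ± 0.13, adjusted p = 6.0e-05), Plk1 (-0.84 ± 0.14), Aurka (-0.84 ± 0.14) and Cenpf (-0.73 ± 0.15) were the lowest. The passenger complex fell again as a group of 4, with Birc5 at -0.60 ± 0.14 and Aurkb at -0.58 ± 0.12. Prc1 (-0.57 ± 0.15) and Pttg1 (-0.54 ± 0.13) fell. Atad2 (0.96 ± 0.16) and Bub1 (0.65 ± 0.15) rose, and no condensin subunit passed the test in this fraction. Kif23, a kinesin of the central spindle (-0.41 ± 0.13), and Mad2l1 (-0.40 ± 0.12) fell. Without 4EGI-1 replicate 2, whose polysome library carries such an R too, 10 fell and 2 rose. Kif23 (-0.41 to -0.33) was not called without 4EGI-1 replicate 2 or 3, or without DMSO replicate 3 or 4. Mad2l1 (-0.35) was not called without 4EGI-1 replicate 4, or without DMSO replicate 1.

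Per library, Cdc20 in total RNA read 190.1, 167 and 192 CPM with DMSO, 141, 137 and 165 with Halofuginone, 184, 169 and 212 with Torin1 and 72.2, 92.0 and 110.2 with 4EGI-1. In polysome RNA it read 356, 352 and 309 CPM with DMSO, 305, 304 and 311 with Halofuginone, 379.7, 422 and 381 with Torin1 and 139.8, 173 and 192 with 4EGI-1. The 4EGI-1 libraries lie below all others in both fractions. Prc1 in total RNA had 66.6, 60.8 and 64.1 CPM with DMSO, 53.9, 58.7 and 56.4 with Halofuginone, 60.9, 60.3 and 71.1 with Torin1 and 28.3, 33.6 and 34.2 with 4EGI-1, again the lowest group. Aurka in total RNA had 68.6, 58.6 and 56.4 CPM with DMSO, 50.0, 50.1 and 55.8 with Halofuginone, 52.5, 57.2 and 63.2 with Torin1 and 29.5, 32.7 and 40.6 with 4EGI-1. No 4EGI-1 library overlaps another group here either. Cenpe in polysome RNA stood at 46.3, 82.3 and 67.4 CPM with DMSO, 95.4, 74.9 and 69.8 with Halofuginone, 119.9, 133 and 114 with Torin1 and 79.9, 63.6 and 59.9 with 4EGI-1. Ndc80 stood at 65.3, 74.0 and 67.2, at 64.8, 71.8 and 78.9, at 102, 112 and 113 and at 47.6, 58.4 and 67.7 CPM in the same order. For both genes the Torin1 libraries are the highest. Atad2 in polysome RNA stood at 18.3, 19.6 and 27.5 CPM with DMSO, 27.2, 27.8 and 25.5 with Halofuginone, 31.3, 27.9 and 32.6 with Torin1 and 44.9, 35.1 and 47.3 with 4EGI-1. There the DMSO libraries are low and the 4EGI-1 libraries are the highest.

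**Figure D5:**
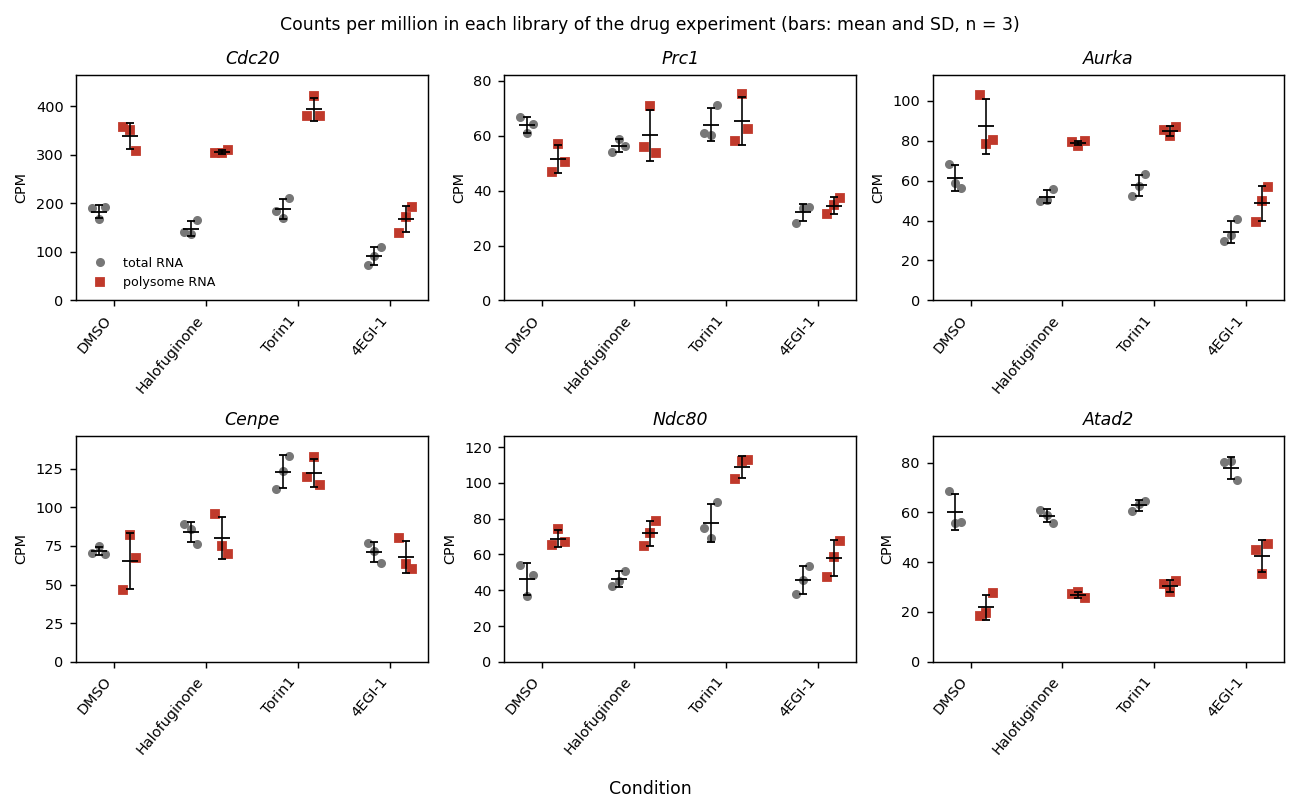
CPM of 6 genes in each library of the drug experiment, total RNA as grey circles and polysome RNA as red squares, with the mean and SD of 3 libraries per group. Cdc20, Prc1 and Aurka are lowest with 4EGI-1 in both fractions, Cenpe and Ndc80 are highest with Torin1, and Atad2 in polysome RNA is highest with 4EGI-1.

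The drugs differed from one another for 28 of the 40 members in total RNA, where 42.3% of all genes differed, and for 22 in polysome RNA, where 24.2% did. Cenpf differed most clearly in total RNA (adjusted p = 6.5e-09), at 0.05 with Halofuginone, 0.51 with Torin1 and -0.88 with 4EGI-1. Plk1 in polysome RNA (adjusted p = 6.2e-06) stood at -0.02, 0.53 and -0.84 in that order. Prc1 in total RNA (adjusted p = 4.3e-07) stood at -0.18, 0.00 and -0.996. The polysome to total ratio of no member passed edgeR's quasi-likelihood test with any drug. Unadjusted p-values below 0.05 were found for 1, 5 and 4 members with Halofuginone, Torin1 and 4EGI-1, and DESeq2 called 0, 0 and 1. Of all 12745 genes tested 0%, 1.79% and 0.565% were called. With 4EGI-1, 1 member was called with the lysate as a block and 1 without the lysate of DMSO replicate 4, and with Torin1 1 was called without the latter. The test among drugs called 0 members, with 1 at an unadjusted p below 0.05 and 0 with DESeq2, where 0.479% of all genes passed.

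In DMSO, 13 members were higher in polysome than in total RNA and 11 lower, where 28.4% and 30.9% of all genes were. Spc24 (1.56 ± 0.11), Pttg1 (1.41 ± 0.11), Cdca8 (1.10 ± 0.14) and Cdc20 (1.00 ± 0.13) were the highest. Atad2 (-1.36 ± 0.13), Smc2 (-0.78 ± 0.17), Ect2 (-0.72 ± 0.14) and Espl1 (-0.60 ± 0.14) were the lowest. The libraries of this experiment are labelled polyA RNA and those of the nutrient experiment total RNA, so the ratios in DMSO and in Control were not compared by a test.

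Of the 114 other mitosis genes 30 rose and 14 fell with Torin1 and 13 and 30 with 4EGI-1 in total RNA, where the shares of all genes were 13.3% and 13.3% with Torin1 and 14.1% and 12.3% with 4EGI-1. In polysome RNA 19 rose and 1 fell with Torin1 and 13 and 26 with 4EGI-1. Of all genes 8.48% and 8.30% did with Torin1 and 14.1% and 14.5% with 4EGI-1. In both fractions the falls with Torin1 and the rises with 4EGI-1 lay near or below these shares. With 4EGI-1, Ccnf, cyclin F (-1.13 ± 0.10), and Kpna2, an importin (-1.18 ± 0.16), fell in total RNA, and Ube2c, the ubiquitin-conjugating enzyme of the anaphase-promoting complex (-1.01 ± 0.13), fell in polysome RNA. With Torin1, Mastl, the Greatwall kinase of mitotic entry, rose in polysome RNA (0.85 ± 0.18), as did Hmmr, a spindle protein (0.93 ± 0.18). Of the 44 replication genes 0 rose and 12 fell with Torin1 and 1 and 8 with 4EGI-1 in total RNA, and 1 rose and 14 fell with Torin1 and 1 and 9 with 4EGI-1 in polysome RNA. Fen1, a nuclease of lagging strand synthesis, fell in total RNA with Torin1 (-0.79 ± 0.13).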

How the data were processed

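Read counts per gene came as 1 deposited table of 14695 mouse genes and 60 libraries, raw whole numbers as the authors made them. Build GRCm39 and, without versions or roles, STAR, HTSeq, edgeR, Trimmomatic, MultiQC and FastQC are named in the submitters' processing notes, and 449 genes carry no symbol. The labels list 78 libraries, and 18 from monosome fractions were not analysed here. Counting by strand is not given in the sources used here.

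The analysis used edgeR 4.0.16 (R 4.3.3, with limma 3.58.1). A minimum count of 10 in filterByExpr decided which genes were tested, and TMM scaled the libraries, so changes are relative to most genes. For each experiment, 1 model per fraction held all its groups and gave edgeR's quasi-likelihood F test, and a model of both fractions gave translational efficiency as its interaction. P-values were adjusted by Benjamini-Hochberg over all genes tested and called at 0.05. A standard error is the fold change over the root of F. The scripts were tested on simulated data.

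The 40 genes and all lists were chosen with earlier results of these data known. Named were, per comparison, the called members with the 4 largest and 4 lowest changes and the largest of each role. Others were chosen after their values were seen (Aurka, Birc5, Mad2l1, Nuf2, Tpx2 and genes that show a group's range). The genes shown library by library are among these, so gaps between their groups follow in part from that choice. The labels tie each polysome library to the total library of its lysate (mean residual correlation 0.0552 and 0.107 in the nutrient and drug experiments), a pairing used as a block in an alternative only. Library pairs within a group differed beyond counting noise, by a chi-square per gene of at least 3.49. The labels mark Torin1 polysome replicate 3 and 4EGI-1 polysome replicate 2 with an R whose meaning they do not give, and both were used. Alternatives were DESeq2 1.42.0, RLE size factors, no filter, a replicate or lysate block, the rRNA-free scaling and leaving out each lysate. Promoter windows came from RefSeq (GRCm38.p6), and 7 of the 40 genes had none there.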

Additional observations from a re-analysis of the deposited data

Results flagged for a closer look

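These results were singled out because a test of the difference among conditions, edgeR's F test with Benjamini-Hochberg adjustment, was passed by some of the 40 genes. Among the 5 deprivations, 31 members differed in total RNA, where 60.0% of all genes did, 40 in polysome RNA, where 80.7% did, and 20 in the polysome to total ratio, where 32.6% did. Among the 3 drugs, 28 differed in total RNA, where 42.3% of all genes did, and 22 in polysome RNA, where 24.2% did. The genes that differed with the smallest adjusted p were Aurka in nutrient total RNA, Mad2l1 in nutrient polysome RNA and in the nutrient ratio, Cenpf in drug total RNA and Plk1 in drug polysome RNA. Groups of 3 libraries were too small to look for single outlying libraries in this way.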

How the results depend on the processing

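Of 490 called gene values, recomputed 5237 times under the alternatives, 0 changed direction and 338 missed the threshold, 304 of them among the 2787 values without 1 lysate. The others were 6 with DESeq2, 5 with RLE size factors, 11 with no filter on low counts, 4 with a replicate block and 8 with the rRNA-free scaling. In total RNA without arginine, 3 members were called, and 5 with DESeq2 and 5 with the replicate block. With lysates as a block, paired by the labels, the counts for the ratio rose from 15 to 23 without arginine, from 20 to 34 for the test among deprivations and from 0 to 1 with 4EGI-1, where DESeq2 also called 1. The replicate block changed no other count of members by over 1.5 times. Libraries that share a replicate number within a fraction had mean correlations of residuals from 0.0268 to 0.0680. These means do not show whether the members share a replicate effect. In polysome RNA the members' summed level was highest in replicate 1 of every nutrient group. In Control it was 3506 CPM in replicate 1 and 2987 and 3029 CPM in the others. Without methionine it was 5331 CPM in replicate 1 and 5238 and 5302 CPM in the others. Without 1 lysate at a time, counts ran from 11 to 21 in total RNA without BCAA (17 with all), from 8 to 22 without methionine (15), from 5 to 21 for the ratio without arginine (15) and from 13 to 26 for the ratio among deprivations (20). They ran from 7 to 15 in polysome RNA with Torin1 (17), and from 0 to 1 for the ratio with Torin1 and from 0 to 1 with 4EGI-1 (0 for both). The cause of these moves in counts was not tested. With 3 libraries a group, and 17506526 to 24929556 counts per drug library, shifts of the ratio may have gone undetected. Some uncalled shifts were as large as shifts called in the nutrient experiment. Between DMSO and 4EGI-1 the mean lysate ratio went from -1.37 to -0.72 for Atad2 and from 1.55 to 1.26 for Spc24. Neither was called in the main fit.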
